A study of Mus musculus with 78 samples.

Results

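The MT-type copies of the mammalian apparent LTR retrotransposons (MaLR) were examined in single blastomeres of 4-cell and 8-cell mouse embryos. A member was any row of the deposited repeat tables whose repeat name starts with MTA, MTB, MTC, MTD or MTE. Each row is 1 annotated repeat entry, called a copy here. By this rule 13450 of the 278683 copies listed at the 4-cell stage and 13000 of the 327627 copies listed at the 8-cell stage were MT copies, and 19624 of 461206 over both tables. Each blastomere was sequenced by Smart-seq2, a full-length single-cell RNA-seq method. All embryos came from a cross of mice carrying the Brainbow-2.1 fluorescent cassette at Rosa26 with mice carrying a tamoxifen-inducible Cre transgene under the CAG promoter, both stages were exposed to 4-hydroxytamoxifen at the 2-cell stage, and the females had been superovulated. These tables cover 24 blastomeres of 4-cell and 26 of 8-cell embryos. None of their column names points to a single embryo or lineage, so each stage was treated as 1 sample without replicates. The spread and the counts of blastomeres given below are over single blastomeres, several of which share an embryo and are not independent. No p-value was therefore computed between the stages.

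MaLR elements are non-autonomous relatives of the endogenous retroviruses of the ERVL class. A complete element has an internal part between a pair of long terminal repeats (LTRs), and recombination between the pair leaves a solitary LTR behind. The LTR carries the promoter, and MT transcripts are among the abundant repeat transcripts of the mouse oocyte, where MT LTRs also serve as first exons of host genes. MTA is the youngest of the subfamilies named here and MTE one of the oldest. The ORR1 copies, another MaLR branch, and the MT2 copies, ERVL-type LTRs that include those of MERVL (MT2_Mm) beside other MT2 types, were used for comparison.

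The total in the FPKM denominator was 6884378 to 16904615 fragments in the 4-cell blastomeres and 2341593 to 21782101 in the 8-cell blastomeres. Of it, 820759 to 1887339 and 213564 to 2563331 fragments lay on listed repeat copies. The 8-cell blastomere in column S57 was the shallowest, and the 4-cell blastomeres in columns S18 and S20 had the fewest genes above an FPKM of 1, with 3009 and 3699. In 5 of the 8-cell columns the name is NA. Blastomere identity was checked on a list of 10 early embryonic genes, of which 4 exceeded an FPKM of 1 in every 4-cell blastomere and 7 in every 8-cell blastomere, Dppa3 and Obox6 among them. Of 10 cumulus or granulosa genes, 3 were in the 4-cell and 2 in the 8-cell table, and their summed FPKM ran from 0 to 3.06 and from 0 to 1.66, with a median of 0 at both stages. Their defining genes Fshr and Foxl2 were not listed, and of 3 blood markers none was listed. Of 4 oviduct markers 3 were listed at each stage, with a median sum of 0 and a highest sum of 45.3 and 15.4. The libraries have no molecular identifiers, and several fragments can come from the same molecule.

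MTA was the largest of the subfamilies in listed MT copies at both stages, and MTC, MTD and MTE had more listed LTRs in the 8-cell table. At the 4-cell stage 5431 MTA LTRs and 2252 MTA internal parts were listed, against 3787 and 1976 at the 8-cell stage. MTB counted 721 LTRs at the 4-cell stage and 680 at the 8-cell stage. The numbers of MTC LTRs were 1031 and 1321, those of MTD LTRs 1732 and 2301, and those of MTE LTRs 1725 and 2320. Internal parts were scarcer outside MTA, with 121 and 81 for MTB, 160 and 161 for MTC, 75 and 105 for MTD, and 202 and 268 for MTE. The overlap of the tables also differed by subfamily. The 4736 MTA copies in both tables were 61.6% of the 4-cell and 82.2% of the 8-cell list, whereas the 688 shared MTE copies were 35.7% and 26.6%. Over all repeats the shared 145104 copies were 52.1% and 44.3%.

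The median length recovered from the values differed between the subfamilies, whose lengths overlapped. The median MTA LTR at the 4-cell stage was 394 bases long with quartiles of 391 and 395, and 4760 of the 5431 fell at 380 to under 410 bases, about the length of a whole LTR. The median length was 389 bases for MTB, 296 for MTC, 267 for MTD and 217 for MTE LTRs, with quartiles of 304 and 398 for MTB and of 118 and 329 for MTE. The quartiles of the MTA LTRs thus lay within those of the MTB LTRs, and the medians were lower from MTB to MTE. The median MTA internal part had 1093 bases. Of the MTA LTRs under 200 bases, 86.4% were above 0 in a single 4-cell blastomere, against 41.7% of those of 380 to under 410 bases. A longer copy offers more bases to a read, and lengths recovered from few fragments are lower bounds. The split by length thus depends in part on the fragments seen, and the part of length in this difference was not tested.

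A 4-cell blastomere had 887 to 3887 MT copies above 0 with a median of 2326, and an 8-cell blastomere had 595 to 2441 with a median of 1530. Without S18 and S20 the 4-cell median was 2248.5. The ranges overlapped widely. The number of all repeat copies above 0 was close between the stages, with medians of 36838 and 36262. MT copies made up 3.13% to 14.6% of the repeat copies above 0 in the 4-cell blastomeres with a median of 5.95%, and 2.91% to 7.41% in the 8-cell blastomeres with a median of 4.79%. In 5 of the 24 4-cell blastomeres the share was above that of every 8-cell blastomere, and in 21 of the 26 8-cell blastomeres it was below the 4-cell median. The 5 columns named NA took 2.94% to 3.79%, all in the lower part of the 8-cell range. Without them the 8-cell median was 5.33%, close to the 5.28% of the 4-cell stage without S18 and S20.

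**Figure D1:**
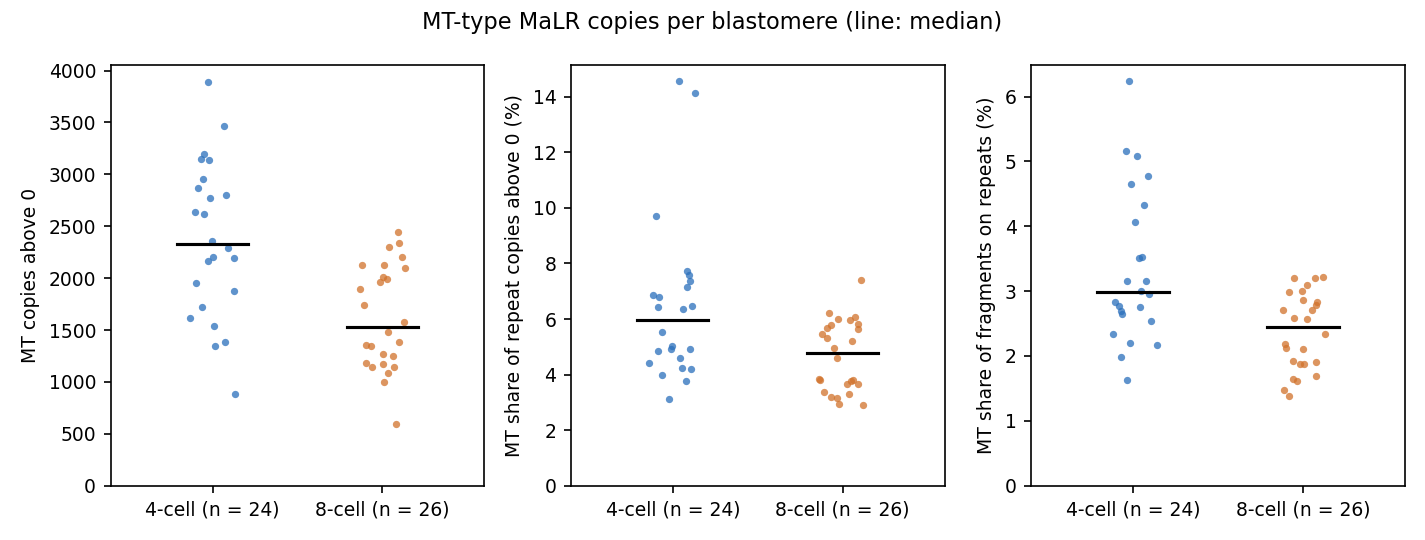
MT copies above 0 (left), MT share of the repeat copies above 0 in percent (middle) and MT share of the fragments on repeats in percent (right), where each point is 1 blastomere of the 4-cell (24) or 8-cell (26) stage and the line is the median. The copy counts have medians of 2326 and 1530, and the 2 highest shares of copies, 14.6% and 14.1%, are 4-cell blastomeres.

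By fragments, MT copies took 1.63% to 6.24% of the fragments on repeats in the 4-cell blastomeres with a median of 2.98%, and 1.38% to 3.22% in the 8-cell blastomeres with a median of 2.45%. Of the summed repeat FPKM, where each copy weighs per length, the medians were 0.679% and 0.643%, with ranges of 0.413% to 1.44% and 0.346% to 0.824%. The difference between the stages was therefore small on this scale for the MT copies as a whole. By subfamily, the MTA median was 0.237% and 0.125% of the summed FPKM. Those of the others were higher at the 8-cell stage, with 0.0286% and 0.0302% for MTB and 0.0711% and 0.0830% for MTC. For MTD they were 0.162% and 0.191%, and for MTE 0.172% and 0.199%. ORR1 took a median of 5.71% of the 4-cell and 4.30% of the 8-cell fragments, and MT2 4.66% and 4.17%. In fragments, MTA was the subfamily with the lower share at the 8-cell stage. Its median share was 1.88% against 1.12%, and 25 of the 26 8-cell blastomeres lay below the 4-cell median. The medians of the other subfamilies were higher at the 8-cell stage, with 0.101% against 0.111% for MTB, 0.205% against 0.241% for MTC, 0.413% against 0.483% for MTD and 0.413% against 0.501% for MTE. MTA held 41.9% to 85.6% of the MT fragments in single 4-cell blastomeres, and 23.4% to 68.5% in single 8-cell blastomeres. It was the subfamily with the most fragments in 24 of 24 and 22 of 26 blastomeres.

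Within MTA, the internal part exceeded the LTR in fragments in every blastomere of both stages. The ratio of internal to LTR fragments was 1.92 to 10.4 with a median of 5.30 at the 4-cell stage, and 1.09 to 6.22 with a median of 3.26 at the 8-cell stage. The internal part is longer than the LTR, so this ratio is not one of levels per length. MTA internal parts above 0 numbered 437 to 1751 per 4-cell blastomere with a median of 1206.5, and 408 to 1150 with a median of 755 per 8-cell blastomere. MTA LTRs above 0 numbered 194 to 1680 with a median of 642.5, and 88 to 663 with a median of 284.5. Blastomeres rich in one were rich in the other, with a Spearman rho of 0.975 over 24 blastomeres and 0.785 over 26, where both counts come from the same libraries and share their depth. The LTR counts of the other subfamilies were closer between the stages. The medians were 58.5 and 49.5 for MTB, 79.5 and 90.5 for MTC, 138.5 and 169.5 for MTD, and 135 and 162.5 for MTE.

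**Figure D2:**
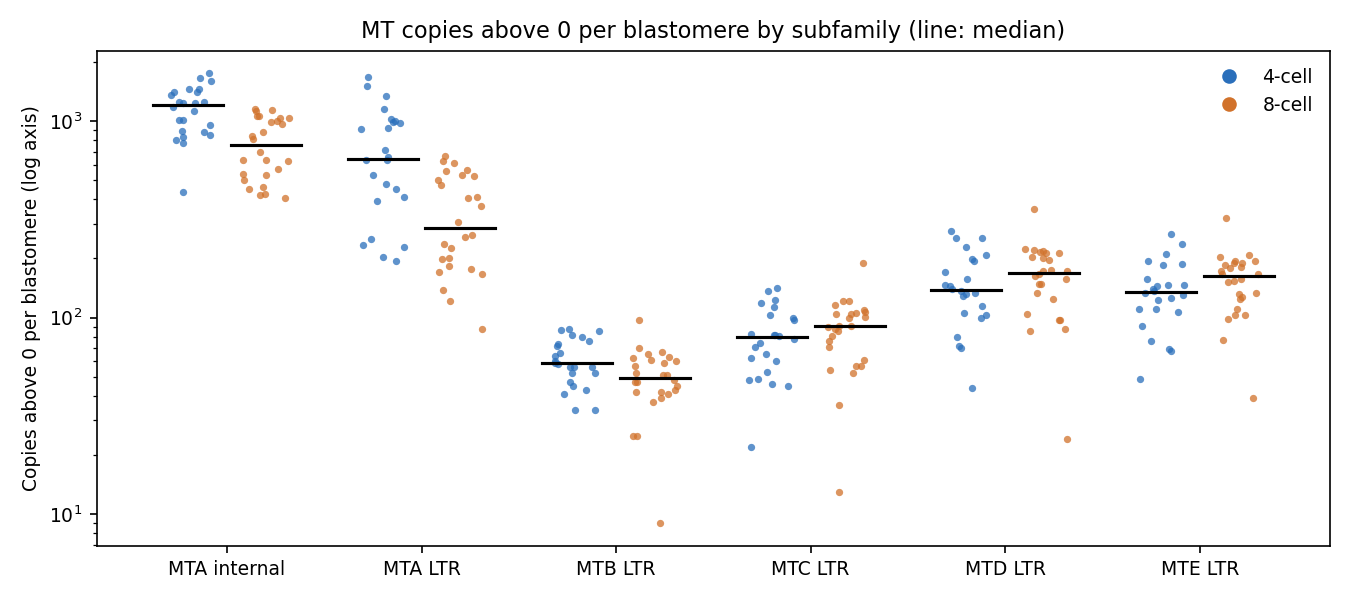
Copies above 0 per blastomere on a log axis for MTA internal parts and for the LTRs of MTA to MTE, where each point is 1 of the 24 4-cell or 26 8-cell blastomeres and the line is the median. The MTA medians are 1206.5 and 755 for internal parts and 642.5 and 284.5 for LTRs, whereas those of MTC, MTD and MTE LTRs are higher at the 8-cell stage.

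Depth touches a count of copies above 0, so each blastomere was also thinned to 500000 fragments on repeats, which left out 1 8-cell blastomere. The median number of MTA LTRs above 0 was then 385.5 for 4-cell and 133 for 8-cell blastomeres, and that of MTA internal parts 763 and 341. For MTB LTRs the thinned medians were 42.5 and 37, for MTC LTRs 65.5 and 69, for MTD LTRs 120.5 and 138, and for MTE LTRs 115.5 and 126. All repeat copies above 0 had thinned medians of 28990.5 and 27813. The order of the stages in each of these subfamilies was the one seen without thinning.

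Few MT copies were seen in every blastomere of a stage, and at full depth most of those that were belonged to the MTA internal part. At the 4-cell stage 124 MT copies, 0.922% of those listed, were above 0 in all 24 blastomeres, beside 0.499% of all repeat copies. They were 115 MTA internal parts, 6 MTA LTRs and 1 LTR each of MTB, MTD and MTE. Only the internal parts were above the share of all repeats, with 4.09% of those listed, whereas MT LTRs were under it with 0.0846%. The median length was 1090 bases for MT internal parts and 146 for all repeats, and the part of length was not tested. At the 8-cell stage 19 MT copies, 0.146% of those listed, were above 0 in all 26 blastomeres, beside 0.379% of all repeat copies. They were 12 MTA internal parts, 3 MTA LTRs, 2 MTD LTRs and 1 LTR each of MTB and MTE, and no MTC copy was seen in every blastomere of either stage. By part, they were 0.463% of the listed MT internal parts and 0.0672% of the MT LTRs. Without the columns named NA the 8-cell number was 41 over 21 blastomeres, 0.315% of the listed MT copies beside 0.399% of all repeat copies. Without S57 it was 23, or 0.177% beside 0.524%. Without S18 and S20 the 4-cell number was 131 over 22 blastomeres, or 0.974% beside 0.793% of all repeat copies. After thinning the numbers were 29 and 9, of which 25 and 4 were MTA internal parts, so that these were no longer the majority at the 8-cell stage. The order of MT copies and all repeats at the 4-cell stage turned with thinning, with 0.216% of the listed MT copies beside 0.322% of all repeat copies (898). With at least 3 fragments required it turned as well, with 0.171% beside 0.309%. At the 8-cell stage the MT share stayed below that of all repeats in both settings, with 0.0692% beside 0.311% (1018 copies) after thinning and 0.0385% beside 0.253% with 3 fragments. At the other end, 49.0% of the MT copies of the 4-cell table and 58.0% of those of the 8-cell table were above 0 in a single blastomere, beside 54.8% and 59.8% of all repeat copies. The parts differed in direction. MT LTRs were above all repeats in this share, with 57.9% and 67.2%, whereas MT internal parts were under them, with 15.3% and 20.996%. That share was 73.0% and 74.5% for MTE and 4.62% and 7.09% for the MTA internal part.

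Only 10 MT copies were above 0 in every blastomere of both stages, out of 650 such repeat copies, namely 8 MTA internal parts and 2 MTA LTRs. Most were weak. The strongest was the internal part MTA_Mm-int_dup146 on chromosome 3, 1096 bases long, whose FPKM was 18.7 to 196 with a median of 71.3 at the 4-cell stage and 8.28 to 152 with a median of 37.8 at the 8-cell stage. The internal part MTA_Mm-int_dup155 on chromosome 4 followed, with 5.02 to 104 and a median of 41.1, and with 0.0504 to 75.7 and a median of 29.2. Its lowest 8-cell value rests on 1 fragment. The remaining 8 had medians of at most 4.97 FPKM in 4-cell and 2.90 in 8-cell blastomeres. They include MTA_Mm-int_dup92 on chromosome 6, which ran from 0.184 to 60.1 with a median of 2.24 at the 4-cell stage and from 0.0925 to 1.22 with a median of 0.231 at the 8-cell stage. In column S20 alone it had 879 of its 2150 4-cell fragments.

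The strongest MT copy by mean FPKM was the same at both stages, the MTA LTR MTA_Mm_dup522 on chromosome 10, 391 bases long. It was above 0 in 20 of 24 4-cell blastomeres, with 0 to 432 FPKM and a median of 153, and in all 26 8-cell blastomeres, with 20.8 to 759 and a median of 164. Its median fragment number was 822 at the first and 1058.5 at the second stage, and it held 1.94% and 3.22% of all MT fragments. The ranges overlapped over most of their span and its scaled mean at the 8-cell stage was 1.24 times that at the 4-cell stage. With medians of the scaled values in place of means this ratio was 0.959. The third MTA copy at the 8-cell stage, the LTR MTA_Mm_dup387 on chromosome 13, was higher there, with a median of 29.2 against 3.03 FPKM and a ratio of scaled means of 2.72. The 10 MTA LTRs with the most fragments held 28.4% of the MTA LTR fragments at the 4-cell stage and 44.8% at the 8-cell stage, and 50% of these fragments lay on 68 and on 20 copies. For MTA internal parts the shares were 19.9% and 23.1%.

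Among the older subfamilies, single copies reached the level of the MTA leaders. The LTR MTD_dup1737 on chromosome 5, 108 bases long, had 8.85 to 237 FPKM with a median of 129 in the 24 4-cell blastomeres and 0 to 235 with a median of 104 in the 8-cell blastomeres, 25 of which were above 0. MTD_dup488 on chromosome X had medians of 107 and 118 and was above 0 in 20 of 24 and 23 of 26 blastomeres. These were the leading MTD copies at both stages, and neither moved past 2-fold, with ratios of 0.805 and 1.07. MTD_dup407 on chromosome 2, the third at the 4-cell stage, had medians of 65.2 and 45.6. In MTE, the LTR MTEa_dup552 on chromosome 1 had medians of 113 and 61.2, with 21 of 24 and 17 of 26 blastomeres above 0. MTEa_dup998 on chromosome 13 had 0 to 215 FPKM with a median of 73.0 at the 4-cell stage and 4.95 to 132 with a median of 28.04 at the 8-cell stage. It was past 2-fold lower there, with a ratio of 0.442. MTEb_dup374 on chromosome 3 had medians of 58.1 and 33.6.

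No MTC or MTB copy described here was above 0 in more than 21 of the 24 4-cell or 20 of the 26 8-cell blastomeres. The MTB LTRs seen in every blastomere of a stage, 1 at each stage, are not among the copies described. The leading MTC copy at both stages was the LTR MTC_dup109 on chromosome 3, with medians of 44.5 and 43.4 FPKM and 19 blastomeres above 0 at each stage. MTC_dup255 on chromosome 17 was above 0 in 18 4-cell blastomeres with a highest value of 189, and in 6 8-cell blastomeres. MTC_dup424 on chromosome 8 was above 0 in 13 and 11 blastomeres. MTC_dup90 on chromosome 1 had a median of 6.24 in 4-cell and 41.0 in 8-cell blastomeres, and MTC_dup948 on chromosome 12 had 8.77 and 23.7. The leading MTB copy of the 4-cell stage, MTB_dup78 on chromosome 11, had medians of 10.5 and 0.150 and highest values of 48.4 and 54.9, with a ratio of scaled means of 0.650, which is not past 2-fold. That of the 8-cell stage, MTB_dup131 on chromosome 1, had 0.354 and 11.6, with a ratio of scaled means of 4.37. MTB_dup23 on chromosome 16 had 6.69 and 4.91. MTB_Mm_dup77 on chromosome 14 and MTB_Mm_dup269 on chromosome 15 were above 0 in 17 and 8 4-cell blastomeres and in 9 and 14 8-cell blastomeres. The names give no position within the chromosome, so the genes next to these copies were not analysed here.

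**Figure D3:**
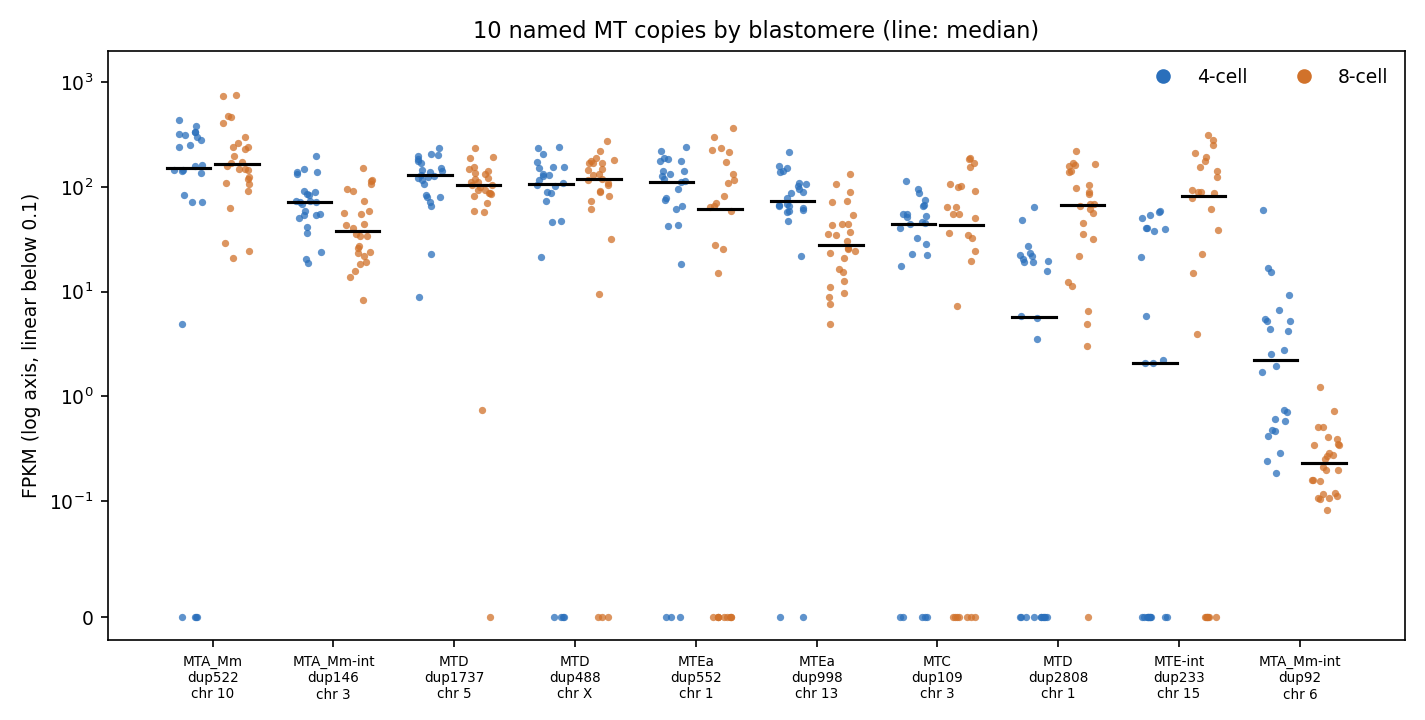
FPKM of 10 of the MT copies described in the text, each point being 1 of the 24 4-cell or 26 8-cell blastomeres and the line the median, on a log axis that is linear below 0.1. MTA_Mm_dup522 lies at similar levels at both stages with medians of 153 and 164, MTA_Mm-int_dup92 is lower at the 8-cell stage with 2.24 and 0.231, and MTD_dup2808 and MTE-int_dup233 are higher there.

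The stages were compared copy by copy on values scaled to the summed repeat FPKM of the blastomere. A copy was tested if it was in both tables and above 0 in at least 25 of the 50 blastomeres, and called if the mean 8-cell value differed by 2-fold or more from the mean 4-cell value. In both tables there were 6826 MT copies, of which 1112 passed this filter, 919 of them MTA internal parts and 113 MTA LTRs, and 5714 did not. With 24 4-cell blastomeres, a copy that passed was above 0 in at least 1 8-cell blastomere, whereas the 26 8-cell blastomeres alone could carry a copy through. Of the 1112 copies 861, or 77.4%, were lower at the 8-cell stage and 36, or 3.24%, were higher. Over all 15721 repeat copies tested 35.7% were called lower, 15.6% higher and 51.3% in either direction. The median ratio was 0.323 for the MT copies and 0.753 for all repeats. In all, 1024 of the 1112 had a ratio below 1.

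Of the 861 lower copies 850 were MTA, but so were 1032 of the 1112 copies that passed the filter. Of 919 MTA internal parts 758 (82.5%) were lower and 22 higher, and of 113 MTA LTRs 92 (81.4%) were lower and 6 higher, with median ratios of 0.308 and 0.318. Of the 80 copies of the other subfamilies that passed the filter 11 were lower. MTD had 3 of 34 lower and 4 higher, MTE 4 of 28 lower and 2 higher, MTB 2 of 10 and 1 higher, and MTC 2 of 8 and 1 higher. Their shares called lower, from 8.82% for MTD to 25% for MTC, were under the share of all repeats with this filter and the mean, and their median ratios were 0.849 for MTD, 0.796 for MTE, 0.715 for MTB and 1.14 for MTC. ORR1 had 56.6% of 447 copies lower and MT2 32.3% of 350. With S18 and S20 left out, 698 of 1023 MT copies were lower (68.2%), beside 33.5% of all repeats, and without the columns named NA 755 of 1044 (72.3%), beside 35.99%.

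**Figure D4:**
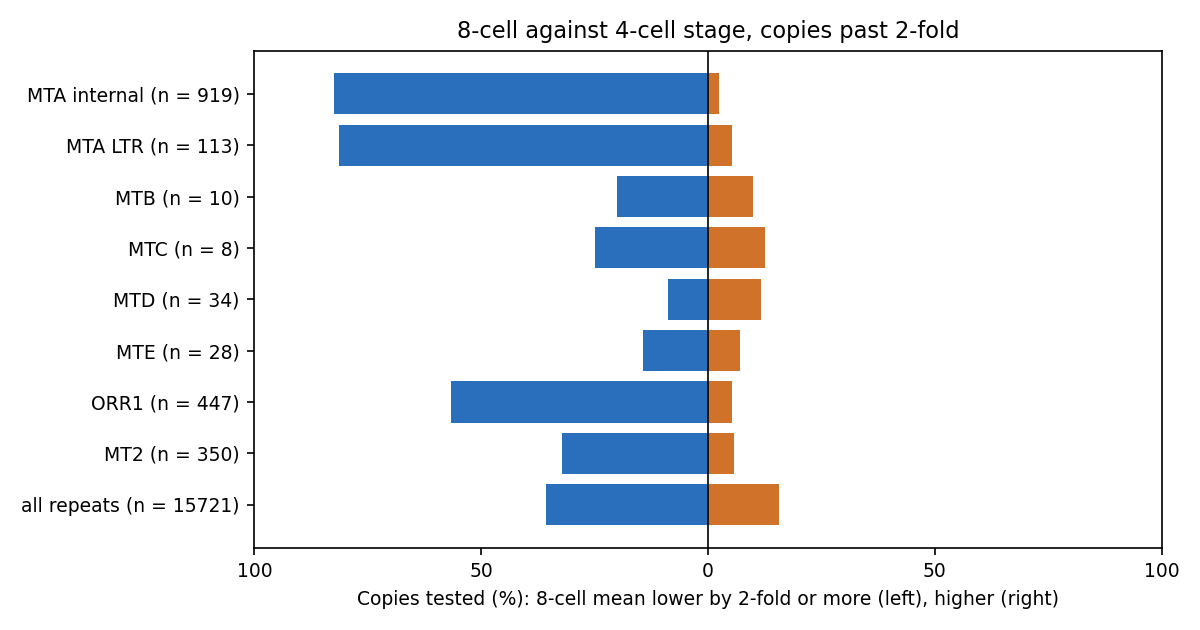
Share of the copies tested, in percent, whose mean scaled value at the 8-cell stage was lower (left of 0) or higher (right of 0) by 2-fold or more, by group of repeat copies with the number tested. MTA internal parts and LTRs reach 82.5% and 81.4% lower, all repeats 35.7%, and the groups MTB to MTE stand on 8 to 34 copies each.

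The 5 copies with the lowest ratios were MTA internal parts about 1 kb long that were near 0 in the 8-cell blastomeres. With at least 3 fragments required for detection, none of these 5 passed the filter. MTA_Mm-int_dup170 on chromosome 5 had 0 to 33.1 FPKM with a median of 0.301 in the 4-cell blastomeres, 19 of them above 0, and 0 to 0.167 in the 8-cell blastomeres, where 14 fragments were counted in all against 2029. Its ratio was 0.00466. MTA_Mm-int_dup91 on chromosome 4 had 0 to 23.5 with a median of 4.96, and 0 to 2.27 with 6 blastomeres above 0, and a ratio of 0.0157. The others were MTA_Mm-int_dup87 on chromosome X, MTA_Mm-int_dup137 on chromosome 2 and MTA_Mm-int_dup84 on chromosome 7, with ratios of 0.0119, 0.0188 and 0.0235. Their 4-cell medians were 0.121, 0.137 and 0.188 FPKM, and 65.5%, 35.6% and 49.0% of their 4-cell fragments lay in a single blastomere, S18, S4 and S20 in this order. With S18 and S20 left out the ratio of the copy on chromosome X was 0.0367 and that of the copy on chromosome 7 was 0.0411, and MTA_Mm-int_dup91 no longer passed the filter.

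The 5 copies with the highest ratios were of mixed subfamilies. MTD_dup704 on chromosome 7, with a ratio of 6.38, had 0 to 31.6 FPKM with a median of 0.930 at the 4-cell stage and 0 to 156 with a median of 15.5 at the 8-cell stage. MTD_dup2808 on chromosome 1 was above 0 in 14 of 24 4-cell blastomeres, with 0 to 64.2 and a median of 5.69, and in 25 of 26 8-cell blastomeres, with 0 to 219 and a median of 67.4. Its ratio was 5.45, and the ranges still overlapped. The internal part MTE-int_dup233 on chromosome 15, 114 bases long, had a median of 2.08 and a highest value of 58.7 at the 4-cell stage, and 82.3 and 311 at the 8-cell stage, for a ratio of 5.11. MTA_Mm_dup1166 on chromosome 1 had medians of 0 and 2.55 with a ratio of 4.804. The ratio of 4.70 of MTA_Mm-int_dup27 on chromosome 4 rested on 1 blastomere, S57, which held 93.9% of its 8-cell fragments. This copy did not pass the filter without S57, nor with at least 3 fragments required. Another copy strong at the 8-cell stage, MTE-int_dup36 on chromosome 9, was above 0 in 16 8-cell and 6 4-cell blastomeres and was not tested, with a median of 19.4 against 0 FPKM.

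The share of MT copies differed between blastomeres of a stage along with the number of genes detected. At the 4-cell stage the highest shares of repeat copies, 14.6% and 14.1%, were in S18 and S20, the blastomeres with the fewest genes above an FPKM of 1, and the next, 9.70%, was in S21 with 5336 genes. S18 had 1680 MTA LTRs and 1751 MTA internal parts above 0. The blastomere with the third fewest genes, S24 with 4939, went the other way and had the lowest share, 3.13%. At the 8-cell stage the highest share, 7.41%, was in S53 with 5106 genes, and S57, with the fewest genes, had 6.21%. S57 also had the fewest MT copies (595) and repeat copies (9582) above 0 of its stage. In contrast, S18 had the most MT copies of its stage, 3887, among 26703 repeat copies. Over the blastomeres with a column name the Spearman rho between this share and the number of genes was -0.558 at the 4-cell stage (n = 24) and -0.742 at the 8-cell stage (n = 21). For the MT share of the fragments on repeats the same rho was weaker, -0.351 and -0.470, and on this scale S18 was still highest of its stage with 6.24%, whereas S20, with 4.65%, came after S6, S21 and S5. Both measures come from the same library, and the blastomeres of an embryo are not independent. S18 and S20 also had the highest ORR1 shares of repeat fragments, 28.7% and 21.9% against a median of 5.71%, while the share of MT2 was 2.19% and 2.68% against 4.66%. The part that these libraries' low gene numbers had in the MT share was not tested.

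**Figure D5:**
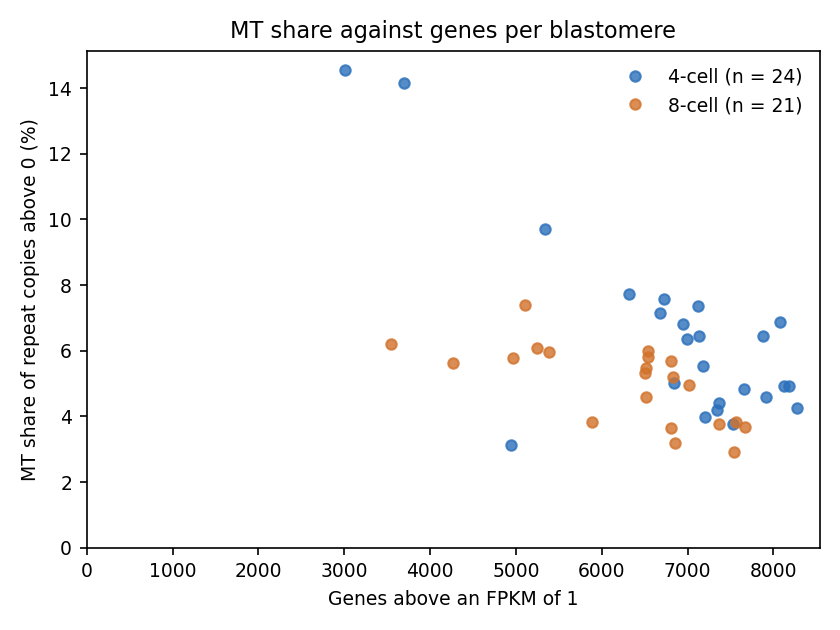
MT share of the repeat copies above 0, in percent, against the number of genes above an FPKM of 1, where each point is 1 blastomere with a column name (24 of the 4-cell and 21 of the 8-cell stage). The 4-cell blastomeres S18 and S20, with 3009 and 3699 genes, lie highest at 14.6% and 14.1%, and S24 with 4939 genes lies lowest of its stage at 3.13%.

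Genes related to MT elements, to their silencing or to the same developmental window were read from the gene tables. Dicer1, the small RNA processing enzyme whose oocyte isoform starts in an MT LTR, had an FPKM of 0 to 50.8 with a median of 6.46 at the 4-cell stage and 0 to 25.8 with a median of 5.77 at the 8-cell stage. These values are of the whole gene and do not separate its isoforms. Of 13 oocyte and maternal transcripts all were listed in both tables, and 6 had a median above 1 at a stage. Of these 3 were lower by 2-fold or more at the 8-cell stage and 0 higher, beside 21.1% lower and 12.2% higher of the 7131 genes that met the same rule. They were Gdf9, an oocyte growth factor, with medians of 4.39 and 0, Btg4, an adaptor of maternal mRNA decay, with 11.6 and 0.114, and Nlrp5, a maternal factor of the subcortical complex, with 5.06 and 0.122. Zp3, a zona pellucida protein, had medians of 83.2 and 45.6. Padi6 and Dppa3, which also had medians above 1, had 24.6 and 30.1 and 3658 and 3260, so not all of these transcripts were lower.

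Of 10 repressors of LTR elements 1 was past 2-fold higher at the 8-cell stage and 1 lower, beside the 12.2% higher and 21.1% lower of all genes under the same rule, so these counts are near or under the background. Trim28, the co-repressor recruited by KRAB zinc finger proteins, had 8.12 to 165 FPKM with a median of 59.8 at the 4-cell stage and 25.6 to 280 with a median of 121 at the 8-cell stage. Dnmt1, the maintenance DNA methyltransferase, had medians of 7.72 and 2.26. The medians of Cbx5, a heterochromatin protein, were 22.7 and 24.1, and those of Setdb1, a histone H3 lysine methyltransferase, were 6.14 and 8.32. Of 10 factors of genome activation 9 were listed in both tables, 5 had a median above 1, and 1 of these was lower by 2-fold, the homeobox gene Obox5 with 2.87 and 0, which is about the share of all genes called lower (21.1%). Dppa2 and Dppa4, which act together in early embryonic transcription, had medians of 579 and 461 and of 537 and 426, and the nuclear receptor gene Nr5a2 had 44.0 and 34.8.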

How the data were processed

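Single-blastomere Smart-seq2 libraries were sequenced as paired reads. The authors aligned them with STAR 2.5.1b to mm10, kept uniquely aligned reads, assigned them to Refseq genes and RepeatMasker copies by HTSeq-count, and deposited a gene and a repeat table of FPKM for each stage. Reads shared by near-identical copies, which young subfamilies such as MTA hold most of, are lost by this choice, and reads of a host transcript that runs through a copy are kept. The criterion for listing a copy is not given in the sources used here.

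The repeat FPKM were found to be whole fragments over a length and a whole total per column. The totals were recovered from the most frequent ratio between columns. The length of a copy was the smallest whole number that made its fragments whole, which was found for all but 1 copy of each table. Of the 145103 copies with a length in both tables, 81.4% had the same and 99.2% the same or a multiple. Where 1 length was a multiple of the other (25843 copies), the larger, up to a set limit, was used at both stages. At both stages 100% of the recovered values then lay within 0.01 of a whole number. A true length can still be a multiple of the recovered one, and fragments are then lower bounds. The gene tables showed the same totals in 22 of 23 and 20 of 20 ratios between columns. On simulated data the recovery and the stage comparison were tested before use. Values per blastomere were computed with Python 3.11.15, numpy 2.4.6 and pandas 2.3.3.

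The 78 labelled samples (36 4-cell, 5 5-cell, 6 6-cell, 31 8-cell) were not tied to columns, since no column name gives an embryo or lineage and neither column order nor depth was used to assign one, and the 5-cell and 6-cell samples were not used here. Of 15218 and 15342 gene identifiers 15200 and 15320 were matched to RefSeq symbols of GRCm38.p6. The named copies were the 3 with the highest mean FPKM per subfamily and stage among those above 0 in at least 12 blastomeres, up to 10 above 0 in every blastomere of both stages, and the 5 with the largest ratio in each direction. The members and lists were chosen with earlier results of these data known. The alternatives were a detection threshold of 3 fragments, thinning, LTR names only, other filters, folds and averages, unscaled values, the strongest copy left out and certain blastomeres left out.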

Additional observations from a re-analysis of the deposited data

How the results depend on the processing

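No paired or embryo-level analysis was made, because the column names give no embryo or replicate number and embryos were not assigned by column order or depth. No test was made. With at least 3 fragments required, the median number of MT copies per blastomere was 1140 for 4-cell and 663.5 for 8-cell blastomeres, the 8-cell share of repeat copies was 2.88%, the copies seen in every blastomere numbered 23 and 5, and 275 copies were lower and 13 higher at the 8-cell stage, out of 392 tested. Thinned to 500000 fragments on repeats, the medians were 1542 and 926 and the copies seen in every blastomere 29 and 9, beside 898 and 1018 of all repeats. In this setting and with at least 3 fragments, the 4-cell share of listed MT copies seen in every blastomere was below that of all repeats, not above it (0.216% beside 0.322%, and 0.171% beside 0.309%). With LTR names only the medians were 1131.5 and 812. Without the columns named NA, 41 copies were seen in every 8-cell blastomere, 0.315% of those listed beside 0.399% of all repeats. In the stage comparison, the median over blastomeres in place of the mean gave 20 copies higher, a filter of at least 10 blastomeres gave 1942 lower and 142 higher, no filter beyond both tables gave 3935 lower and 947 higher (57.6% lower, beside 38.2% of all repeats), and a fold threshold of 4 gave 347 lower and 8 higher. In each of these settings more MT copies were lower than higher, and the share lower exceeded that of all repeats. Of the MTB to MTE copies, 11 of 80 were lower as reported, 27 of 80 with medians or a fold threshold of 1.5, 118 of 397 with at least 10 blastomeres and 676 of 2090 with no filter, beside 935, 928, 1824 and 3259 lower MTA copies of 1032, 1032, 2235 and 4736. The remaining 33 values of the summary results were within 1.5 times those reported, among them the 4-cell share of repeat copies with at least 3 fragments, 4.15%, the 51 copies higher at a fold threshold of 1.5, the shares of the summed FPKM and the counts on unscaled values, 828 lower and 39 higher. Leaving out S18 and S20 was chosen after seeing the data. Of the named copies, the ratio of MTA_Mm-int_dup27 turned from 4.70 to 0 with medians over blastomeres, as it was above 0 in 9 of the 26 8-cell blastomeres. With medians those of MTB_dup78 and MTB_Mm_dup77 went from 0.650 and 0.672 to 0.0129 and 0, and that of MTC_dup948 from 1.61 to 2.42. The ratios of MTA_Mm_dup522 and MTC_dup109 changed direction within 2-fold, from 1.24 and 1.34 to 0.959 and 0.965. Leaving out blastomeres moved ratios near the 2-fold line across it. That of MTEb_dup374, 0.533, was 0.480 without the blastomere with the fewest repeat copies of each stage and 0.489 without S18 and S20. That of MTC_dup90, 2.09, was 1.96 without the columns named NA. That of MTA_Mm_dup728, 0.485, was 0.531 without these columns, 0.558 without S18 and S20, and 0.505 on unscaled values. Copies seen with few fragments limit these counts, since the threshold of 3 fragments alone took the 4-cell median from 2326 to 1140 copies.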
